A study of Mus musculus with 34 samples.

Results

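The genes described here are 10 genes used as markers of the crypt stem cell or as targets of Wnt signalling in the intestine, namely Lgr5, Ascl2, Olfm4, Smoc2, Axin2, Rnf43, Znrf3, Sox9, Cd44 and Ephb2. They were chosen by name, and the value of each is the mean H3K4me3 signal within 1000 bp of the gene 5′ end (GENCODE M21, mm10). They are 10 of 21938 protein-coding genes measured in this way. The libraries were made by CUT&RUN, in which an antibody tethers micrococcal nuclease, through protein A, to a chromatin mark in unfixed nuclei, and the DNA it cuts free is sequenced. Cells were scraped from villi of the small intestine of C57BL/6J mice, wild type or ApcMin/+, with 2 libraries of each genotype and the same anti-H3K4me3 antibody in all 4. ApcMin/+ mice carry 1 mutant Apc allele in every cell of the body, and according to the methods the tissue taken was normal in appearance. The labels give an age of 5 weeks for both genotypes, whereas the methods give 6 weeks. The comparison asks whether H3K4me3, a mark of promoters in use, differs at these genes in tissue of mutant mice that is not yet tumour.

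In the intestinal crypt, Wnt ligands bind Frizzled receptors, and β-catenin that escapes the Apc-containing destruction complex enters the nucleus and acts with TCF/LEF factors. The genes it switches on include markers of stem cells, feedback inhibitors that dampen the same pathway, and surface receptors that keep cells in place along the crypt. Villus cells are mostly differentiated enterocytes that have left this zone, so the genes described here are known as crypt genes in a sample scraped from above the crypts. In bulk samples such as these, fewer cells carrying a mark and less of the mark in each cell cannot be told apart.

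The promoters of these genes differ in sequence, which matters here because H3K4me3 is commonly found at promoters rich in CpG. In the RefSeq promoter table (GRCm38.p6), which holds 250 bases before and 50 bases after each start, 6 of the 10 genes were matched (Ascl2, Olfm4, Axin2, Rnf43, Cd44 and Ephb2), and Lgr5, Smoc2, Znrf3 and Sox9 were not. The bases before the RefSeq start are printed for 4 genes, 5′ to 3′, with each CpG in capitals. They stop at the first annotated transcript start within them. The bases of Olfm4 lie inside the annotated gene, downstream of its 5′ end. Axin2 and Ascl2 are shown as the pair rich in CpG, and Cd44 and Olfm4 as the pair poor in it.
Axin2, chr11:108920099-108920348, plus strand: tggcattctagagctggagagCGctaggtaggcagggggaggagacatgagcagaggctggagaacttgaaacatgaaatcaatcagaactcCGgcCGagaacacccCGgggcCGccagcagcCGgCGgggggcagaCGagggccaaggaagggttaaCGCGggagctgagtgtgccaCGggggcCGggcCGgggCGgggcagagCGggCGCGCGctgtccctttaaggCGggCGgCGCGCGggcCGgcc
Ascl2, chr7:142969265-142969514, minus strand: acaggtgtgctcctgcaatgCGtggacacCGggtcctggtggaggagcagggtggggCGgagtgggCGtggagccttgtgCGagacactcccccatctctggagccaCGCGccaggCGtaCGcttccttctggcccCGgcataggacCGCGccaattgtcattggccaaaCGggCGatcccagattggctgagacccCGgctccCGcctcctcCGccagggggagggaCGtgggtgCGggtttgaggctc
Cd44, chr2:102901666-102901915, minus strand: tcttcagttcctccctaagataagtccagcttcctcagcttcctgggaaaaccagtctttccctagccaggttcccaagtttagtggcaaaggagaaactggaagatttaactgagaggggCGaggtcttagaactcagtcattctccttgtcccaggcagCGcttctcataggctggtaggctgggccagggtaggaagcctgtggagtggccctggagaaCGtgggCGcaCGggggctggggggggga
Olfm4, chr14:80000052-80000250, plus strand: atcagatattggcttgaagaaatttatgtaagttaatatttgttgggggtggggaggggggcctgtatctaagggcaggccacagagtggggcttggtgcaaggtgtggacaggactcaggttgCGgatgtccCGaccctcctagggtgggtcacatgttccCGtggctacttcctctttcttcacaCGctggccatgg

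Axin2 had 24 CpG in the 250 bases shown and Ascl2 had 19, against 5 in the 250 bases of Cd44 and 4 in the 199 bases of Olfm4. Over the full 300 bases, the ratio of observed to expected CpG was 0.886 at Axin2, 0.685 at Ascl2 and 0.681 at Ephb2, against a median of 0.384 over the 32851 promoters of the table. It was 0.250 at Olfm4 and 0.246 at Cd44. Rnf43 has an entry at each of 2 starts, one 365 bp and the other 37175 bp downstream of its 5′ end, with ratios of 0.634 and 0.204. The TCF/LEF motif CTTTGAT, searched on both strands, was found in none of the 7 promoter entries of the 6 matched genes. It was present in 3.73% of all promoters of the table, so that these letters are rare in windows of this length.

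The tracks state 1430000 tags for wild-type replicate 1, the shallowest library, 4790000 for wild-type replicate 2, and 3700000 and 5470000 for the ApcMin/+ libraries, and a tag was taken as 1 fragment. The signal is coverage, and the authors brought each library to 10000000 tags. At this scale the mean over all 21938 promoters was 6.85 in ApcMin/+ replicate 1 and 1.76 to 2.59 in the other 3 libraries. Its background, more than 5000 bp from any annotated start, was the lowest of the 4, at 0.204 against 0.293 to 0.322. Because a whole library stands apart, differences between the genotypes are also given by rank within the library, centred on the median promoter or without that library.

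Lgr5, the R-spondin receptor that defines the crypt base stem cell, starts at position 115587780 of chromosome 10. Its signal was 1.05 in wild-type replicate 1, 0.843 in wild-type replicate 2, 1.54 in ApcMin/+ replicate 1 and 1.46 in ApcMin/+ replicate 2, and values are given in this order throughout. Both ApcMin/+ libraries were above both wild-type libraries, but the values rest on 3, 8, 11 and 16 fragments, and the exact 95% Poisson interval of wild-type replicate 1, from 0.216 to 3.06, covers all 4 values. Such intervals cover counting error only. Ascl2, a transcription factor of the stem cell fate on chromosome 7 (start 142969264), had 0.727 and 0.704 in wild type and 1.64 and 1.47 in ApcMin/+, from 2, 7, 12 and 16 fragments. The groups did not overlap there either, while the interval of wild-type replicate 1, 0.0847 to 2.53, again reached over both ApcMin/+ values. Signals of this size were 2.19 to 8.0 times the background of their library.

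Olfm4, a secreted glycoprotein abundant in stem cells, had the lowest signal of the 10 genes in each library at its annotated 5′ end on chromosome 14 (79984081). No fragment was found there in wild-type replicate 1, which allows a signal of up to 1.05 (3 fragments), and the signal was 0.311, 0.270 and 0.414 in wild-type replicate 2 and ApcMin/+ replicates 1 and 2. These are 3, 2 and 5 fragments and 0.965 to 1.40 times the background, and the groups overlapped. Smoc2, a secreted matricellular protein of stem cells on chromosome 17 (14279506), had 2.09 and 1.36 in wild type and 4.28 and 3.06 in ApcMin/+, from 6, 13, 32 and 33 fragments. Both ApcMin/+ libraries were the higher ones there, and ApcMin/+ replicate 1 was 1.40 times ApcMin/+ replicate 2.

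Of the feedback inhibitors, Axin2 encodes a scaffold of the β-catenin destruction complex and starts at position 108920349 of chromosome 11. Its signal was 3.32 and 1.06 in wild type and 6.90 and 1.20 in ApcMin/+, from 10, 10, 51 and 13 fragments. The groups overlapped, since ApcMin/+ replicate 2 was below wild-type replicate 1. Rnf43 (chromosome 11, 87662722) encodes a ubiquitin ligase that removes Frizzled from the cell surface. It had 2.79 and 2.38 in wild type and 22.8 and 3.11 in ApcMin/+, from 8, 23, 168 and 34 fragments. ApcMin/+ replicate 1 was 7.33 times ApcMin/+ replicate 2, the widest gap between ApcMin/+ libraries among the 10 genes, and ApcMin/+ replicate 2 was only 1.20 times the wild-type mean.

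Znrf3, the paralogue of Rnf43 with the same role, starts at position 5444847 of chromosome 11. Its signal was 3.49 and 3.64 in wild type and 7.26 and 3.60 in ApcMin/+, from 10, 35, 54 and 39 fragments. Wild-type replicates 1 and 2 and ApcMin/+ replicate 2 were alike at this promoter, with ApcMin/+ replicate 2 at 1.01 times the wild-type mean, and the groups overlapped.

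Sox9, a transcription factor of crypt progenitors and Paneth cells on chromosome 11 (112782224), had 6.28 and 2.40 in wild type and 17.7 and 4.39 in ApcMin/+, from 18, 23, 131 and 48 fragments. The start of an antisense transcript, BC006965, lies in its window at position -248, so that the signal of both starts cannot be separated. Cd44, a hyaluronan receptor of crypt cells on chromosome 2 (102901665), had 1.05 and 1.25 in wild type and 4.29 and 2.09 in ApcMin/+, from 3, 12, 32 and 23 fragments. Ephb2, a receptor tyrosine kinase that positions cells along the crypt (chromosome 4, 136835988), had 1.94 and 1.96 in wild type and 6.30 and 3.12 in ApcMin/+, from 6, 19, 47 and 34 fragments. At Cd44 and Ephb2 the ApcMin/+ values both exceeded those of wild type, while at Sox9 the groups overlapped.

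**Figure D1:**
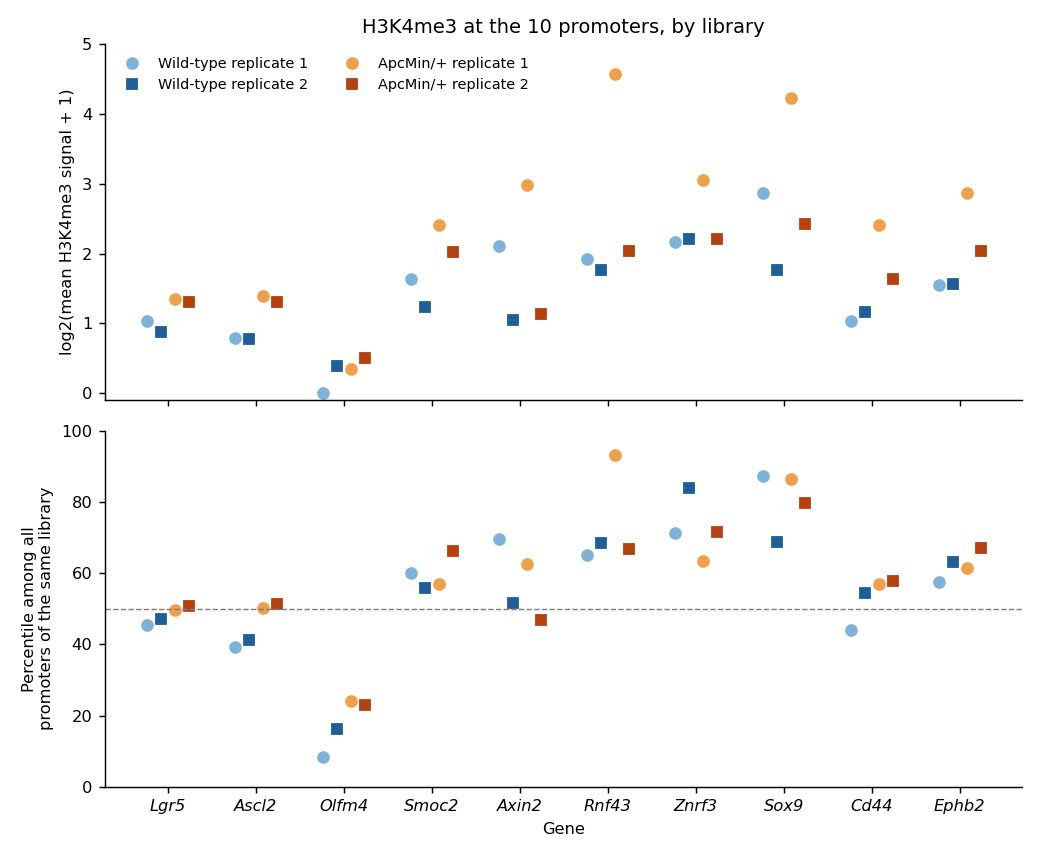
H3K4me3 at the 10 promoters, with each of the 4 libraries as a point. The upper panel gives log2(mean signal + 1) within 1000 bp of the gene 5′ end and the lower panel the percentile among 21938 promoters of the same library, with the median as a dashed line. ApcMin/+ replicate 1 reaches 22.8 at Rnf43 and 17.7 at Sox9 on the signal scale, whereas by percentile only Rnf43, at 93.2 against 65.0 to 68.5 in the other 3 libraries, stands apart from them in this way.

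Ranked within a library, the 10 genes covered most of the range of promoters. Sox9 was at the 87.2 and 68.8 percentile in wild type and the 86.5 and 79.5 percentile in ApcMin/+, and it had the highest or second highest signal of the 10 in every library. Znrf3 was between the 63.4 and 84.0 percentile, and Rnf43 between the 65.0 and 93.2. Smoc2 and Ephb2 lay between the 55.9 and 67.1 percentile, Axin2 between the 46.9 and 69.6 and Cd44 between the 43.9 and 57.7. Lgr5 and Ascl2 were at or below the middle, from the 45.4 to the 50.9 and from the 39.2 to the 51.2 percentile, and Olfm4 was at the 8.35, 16.3, 24.1 and 22.9. By their mean signal over the 4 libraries the order was Rnf43, Sox9, Znrf3, Ephb2, Axin2, Smoc2, Cd44, Lgr5, Ascl2 and Olfm4. Neighbours in this order exchanged places in at least 1 library, except that Znrf3 was above Ephb2 and Olfm4 below Ascl2 in all 4. Lgr5 was above Ascl2 in both wild-type libraries and below it in both ApcMin/+ libraries. The fragments behind this order were nearly equal, at 3, 8, 11 and 16 for Lgr5 and 2, 7, 12 and 16 for Ascl2. The median percentile of the 10 was 58.8, 55.1, 59.2 and 62.0 in the 4 libraries, close to the middle of all promoters.

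Axin2, Rnf43 and Sox9 carried the longest stretches of the mark among the 10 genes. On the mean of the 4 tracks, a stretch above 5 times the genome-wide mean (1.83) covered the start of 9 of the 10 genes, and 58.2% of all promoters had such a stretch in their window, with a median length of 1800 bp. That of Axin2 was 6000 bp long, from 108920101 to 108926100, and 98.3% of promoter stretches were as short or shorter. Rnf43 had a stretch of 4600 bp and Sox9 one of 4500 bp, which were at least as long as 95.5% and 95.2% of promoter stretches. Ephb2 followed with 3200 bp, at the 86.1 percentile of length. Those of Lgr5, Smoc2 and Cd44 were of ordinary length, 2100, 2000 and 1900 bp. Ascl2 and Znrf3 each had 2 short stretches, of 400 and 1400 bp and of 900 and 1000 bp, and Olfm4 had none at its 5′ end.

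In the Axin2 stretch the signal was 3.37 and 2.16 in wild type and 10.9 and 2.83 in ApcMin/+, from 29, 62, 243 and 93 fragments. Over the Rnf43 stretch it was 4.25 and 3.24 in wild type and 26.7 and 4.39 in ApcMin/+, from 28, 71, 456 and 111 fragments, and over that of Sox9 3.72 and 1.65 against 13.4 and 3.69. ApcMin/+ replicate 1 was the highest in all 3. At Rnf43 both ApcMin/+ libraries were above both wild-type libraries over the stretch, whereas at Axin2 and Sox9 ApcMin/+ replicate 2 was below wild-type replicate 1. The edges and lengths of the stretches come from the mean of these same tracks, to which ApcMin/+ replicate 1 added the most here. They are therefore not independent of the values compared, and the share of all stretches with such an order was not computed.

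The side of the start on which the mark lay also differed. At Znrf3 most of it lay upstream, with a signal of 6.81 and 6.15 over the 1000 bp before the start in wild type and 10.1 and 5.95 in ApcMin/+. Downstream it was 0.168 and 1.13 in wild type and 4.38 and 1.25 in ApcMin/+, which leaves the upstream side higher in all 4 libraries. Ephb2 had the same order, with 3.18, 2.68, 9.68 and 3.61 upstream against 0.698, 1.23, 2.93 and 2.63 downstream. At Smoc2, Axin2, Rnf43, Sox9 and Cd44 the downstream side was higher in all 4 libraries. At Znrf3 and Ephb2 the highest 50-bp bin of the mean track was at -400 bp.

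**Figure D2:**
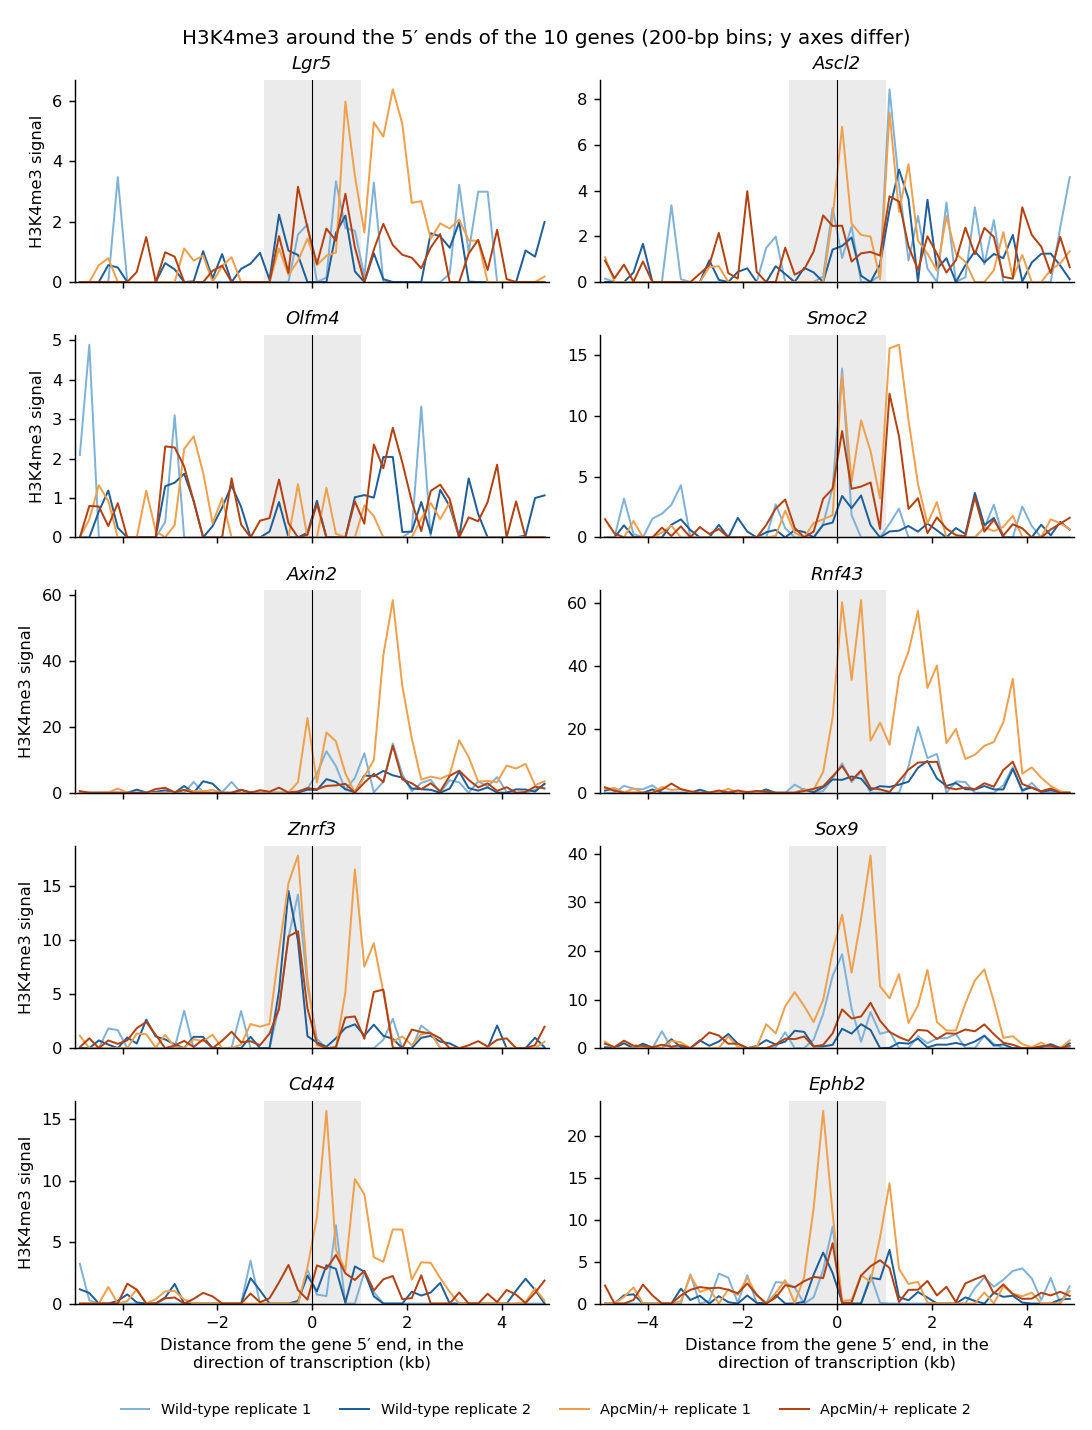
H3K4me3 signal from 5000 bp before to 5000 bp after the 5′ end of each gene, one line per library, in the direction of transcription. The window that gives a promoter its value is shaded, and the y axis differs between panels. The mark runs downstream of the window at Axin2, Rnf43 and Sox9, lies mostly upstream of the start at Znrf3 and Ephb2, and at Olfm4 forms no peak at the annotated 5′ end in any library.

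At several genes the annotated 5′ end was not where the mark was highest, and the value of the gene moves with the start chosen. The 5′ end of Olfm4 is that of a transcript with no coding sequence, whereas its RefSeq promoter, printed above, belongs to a protein-coding start 16221 bp downstream. There the signal was 1.40 and 0.770 in wild type and 2.99 and 1.28 in ApcMin/+, from 4, 7, 22 and 14 fragments. The groups overlapped there as well. Set against the 5′-end values of all genes, Olfm4 at this start was between the 44.3 and 54.2 percentile. With every gene ranked at its strongest start, Olfm4 was at the 44.9, 39.5, 50.5 and 43.6 percentile. At Axin2, the mark was highest at 1700 bp downstream, outside its window, and a start at 1299 bp gave 5.80 and 3.53 in wild type and 19.9 and 3.98 in ApcMin/+. With that start Axin2 lay between the 75.4 and 89.7 percentile of the 5′-end values of all genes. With every gene ranked at its strongest start, Axin2 was at the 82.3, 79.9, 87.0 and 71.7 percentile.

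For Rnf43 the 5′ end is that of a transcript with a retained intron. A protein-coding start 1552 bp downstream had 5.41 and 3.74 in wild type and 29.9 and 4.57 in ApcMin/+, where ApcMin/+ replicate 2 was below wild-type replicate 1 and the groups overlapped. The downstream start of Rnf43 at 37175 bp had a signal of only 0.697, 0.538, 1.22 and 0.946, so that of its 2 RefSeq promoters the upstream one, richer in CpG, carried the mark. Between genes the order was mixed. At their RefSeq starts Cd44, poor in CpG, had a higher signal than Ascl2, rich in it, in every library. Axin2 was above Olfm4 in every library except ApcMin/+ replicate 2. A relation of CpG content to the mark was not tested. Ascl2 had 2.09 and 1.74 in wild type and 3.09 and 2.16 in ApcMin/+ at a second start 547 bp downstream, more than at its first start in every library. The strongest start was picked by the mean of all 4 libraries.

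**Figure D3:**
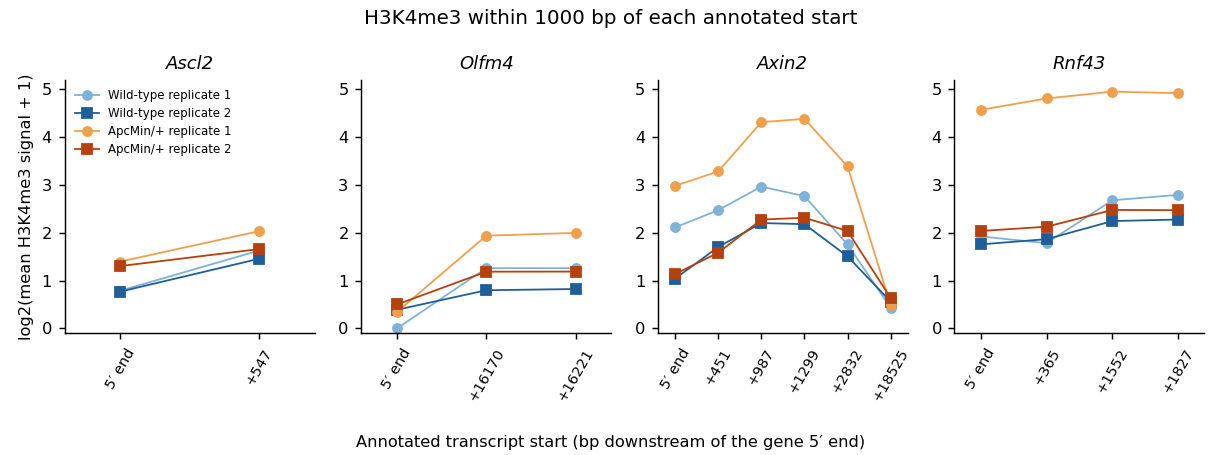
log2(mean H3K4me3 signal + 1) within 1000 bp of each annotated transcript start of Ascl2, Olfm4, Axin2 and Rnf43 that lies within 20 kb of the gene 5′ end, one line per library. Signal at Olfm4 is near 0 at the 5′ end and reaches 2.99 in ApcMin/+ replicate 1 at the start 16221 bp downstream, and that at Axin2 is highest at the starts at 987 and 1299 bp and near 0 at 18525 bp.

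Between the genotypes, none of the 10 genes differed past the threshold. All promoters that reached a mean signal of 2 were tested with limma on log2(signal + 1), and 7 of the 10 genes passed this filter, without Lgr5, Ascl2 and Olfm4. The fit called 0 of 9931 promoters at an adjusted p (Benjamini-Hochberg) of 0.05, which is 0% in either direction, with 131 at an unadjusted p under 0.05 and none of the 7 genes among them. Centred on the median promoter, limma called 5 promoters higher (0.0503%) and 7 lower (0.0705%), none of them among the 10 genes. On the scale of the tracks all 7 had a higher mean in ApcMin/+, as had 99.2% of tested promoters, so this is the direction of nearly every tested promoter. The filter uses the mean of the 4 libraries, which the high promoter signal of ApcMin/+ replicate 1 raises. Without the filter all 10 genes had a higher mean in ApcMin/+, against 70.6% of all promoters. In 4 of the 7, Smoc2, Rnf43, Cd44 and Ephb2, both ApcMin/+ libraries were above both wild-type libraries, against 38.5% of tested promoters, and in 0 of the 7 they were both below, against 0.161%. Smoc2, Cd44 and Ephb2 had wild-type means of 1.725, 1.15 and 1.95, below the filter, and passed it through their ApcMin/+ signal. The 38.5% is over promoters kept by the same filter.

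The log2 difference, ApcMin/+ minus wild type, was 1.46 (SE 0.98) at Rnf43, 1.01 (SE 1.09) at Sox9, 0.91 (SE 0.61) at Cd44 and 0.90 (SE 0.75) at Ephb2. It was 0.78 (SE 0.69) at Smoc2, 0.48 (SE 0.69) at Axin2 and 0.43 (SE 0.90) at Znrf3. Adjusted p from limma was 0.683 for 6 of them and 0.701 for Znrf3. The median of the 7 was 0.90, beside 0.85 over all tested promoters. Without ApcMin/+ replicate 1 the median was 0.20, beside 0.13 over all promoters, and without ApcMin/+ replicate 2 it was 1.31, beside 1.58. In the latter fit 5 of the 7 genes were called, as were 65.2% of all tested promoters, but each of these fits sets 1 ApcMin/+ library against 2, so that all of the spread comes from wild type and the lone library is assumed to vary like it. With all promoters in the fit, the difference was 0.36 at Lgr5, 0.57 at Ascl2 and 0.23 at Olfm4, with an adjusted p from limma of 0.760 for each, and 6 of the 10 genes had both ApcMin/+ libraries above both wild-type libraries, against 26% of all promoters, and in 0 they were both below, against 7.18%.

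When the libraries were centred on their median promoters, the 7 genes no longer lay to one side, with 4 of 7 above 0 against 48.8% of tested promoters. The difference was then 0.61 at Rnf43 (limma, unadjusted p = 0.044, adjusted p = 0.999), 0.16 at Sox9, 0.061 at Cd44, 0.043 at Ephb2, -0.075 at Smoc2, -0.37 at Axin2 and -0.42 at Znrf3. In none of the 7 were both ApcMin/+ libraries on one side of both wild-type libraries, against 13.1% of tested promoters above and 14.3% below. The mean of the 10 genes over that of all promoters was 0.876 and 0.906 in wild type and 1.07 and 1.02 in ApcMin/+, and without Rnf43 it was 0.854, 0.856, 0.815 and 0.985. The higher ratio of ApcMin/+ replicate 1 rested on Rnf43.

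**Figure D4:**
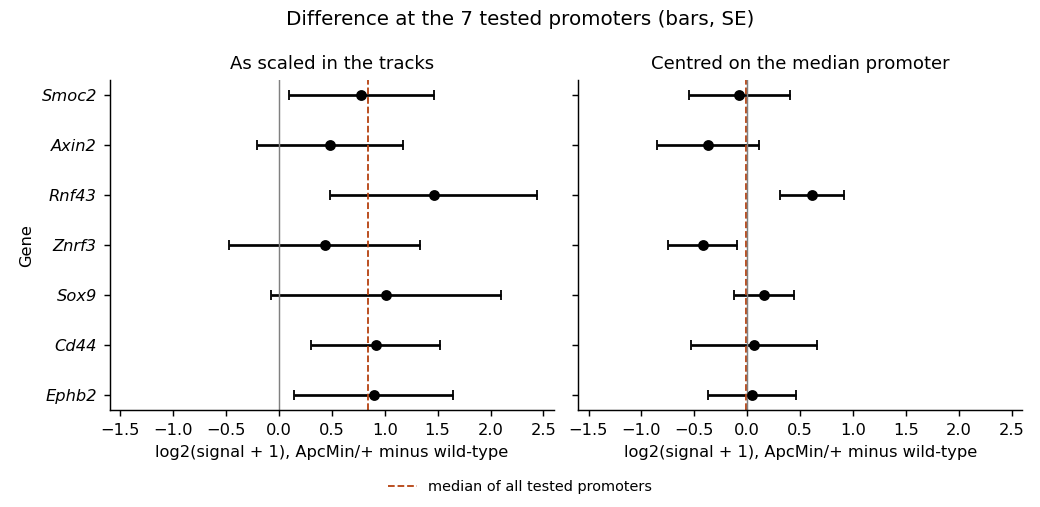
Difference in log2(signal + 1), ApcMin/+ minus wild type, at the 7 promoters that reached a mean signal of 2, with the standard error of limma as bars. The left panel is on the scale of the tracks and the right panel after centring on the median promoter of each library, and the dashed line is the median of all 9931 tested promoters. All 7 lie above 0 on the left, around the median of 0.85, and 4 of 7 lie above 0 on the right.

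By rank, which no scaling between libraries alters, 4 of the 10 genes were higher in both ApcMin/+ libraries than in both wild-type libraries, against 15.2% of all promoters, and 0 were lower, against 16.1%. They were the 3 stem cell markers with the lowest signal and Cd44. The percentile of Ascl2 was 39.2 and 41.1 in wild type and 50.2 and 51.2 in ApcMin/+. That of Lgr5 was 45.4 and 47.2 against 49.7 and 50.9, that of Cd44 43.9 and 54.3 against 57.0 and 57.7, and that of Olfm4 8.35 and 16.3 against 24.1 and 22.9. The 3 stem cell markers have at most 16 fragments in any library, where 1 fragment moves the rank. These counts by rank were added after the data were seen, and no test was made of them. The count depended on the window. With 500 bp on each side only Ascl2 was higher (14.8% of all promoters) and Znrf3 lower (16.4%), and with 2000 bp Lgr5, Smoc2 and Cd44 were higher (15.5%). At the strongest start Lgr5 and Cd44 were higher (15.2%) and Ascl2 was lower (16.1%), so that the counts at 500 bp and at the strongest start are near those of all promoters. Without ApcMin/+ replicate 1, 6 of 10 were higher, against 28.7% of promoters, and 1, Axin2, was lower, against 29.5%.

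Other genes of the pathway did not pass the threshold in either fit. Of 23 further Wnt targets and feedback genes 11 were tested, and both ApcMin/+ libraries were above both wild-type libraries in 3, against the 38.5% of all tested promoters given above. Their median difference was 0.75, and -0.11 when centred. Myc, a growth-promoting transcription factor, had the highest difference, with a signal of 1.51 and 3.09 in wild type and 19.96 and 5.79 in ApcMin/+. The groups did not overlap at Myc, and its log2 difference was 1.90 (limma, adjusted p = 0.683), or 1.04 when centred (limma, adjusted p = 0.219). The cyclin gene Ccnd1 followed, at 0.349 and 1.20 against 5.71 and 2.66, with a centred difference of 0.67. Ccnd1 was below a signal of 2 in both wild-type libraries and passed the filter through its ApcMin/+ signal. The lowest differences were those of Sp5, a transcription factor of Wnt-responding cells, at 0.35 and -0.50 when centred, and of Wif1, a secreted Wnt inhibitor, at 0.048 and -0.81.

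Of 33 further crypt stem cell genes 19 were tested, with both ApcMin/+ libraries higher in 8, again beside 38.5%, and a median difference of 0.83, or -0.027 when centred. Prom1, a membrane glycoprotein of stem and progenitor cells, had the highest difference, with 1.92 and 1.85 in wild type and 10.8 and 5.48 in ApcMin/+. The groups did not overlap at Prom1, although neither fit called it (limma, adjusted p = 0.683 and 0.999). Prom1 was below a signal of 2 in both wild-type libraries and passed the filter through its ApcMin/+ signal. The transcriptional repressor Zfp703 had 7.11 and 3.52 against 26.2 and 5.72, with a centred difference of 0.31. The lowest differences were 0.20 at Tert, the catalytic subunit of telomerase, and 0.00057 at Slc12a2, a chloride cotransporter, or -0.66 and -0.85 when centred. Wnt and R-spondin receptors had 10 of 17 promoters tested and a median difference of 0.82, or -0.030 when centred. The β-catenin complex with TCF/LEF factors had 15 of 21 tested and a median of 0.78, or -0.079 when centred. Of 23 Wnt and R-spondin ligand genes none reached the mean signal of 2.

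Markers of other cell types were read in the same windows to show the cell makeup of the scrapings. Enterocyte markers were strong, with a median percentile of 87.2 and 80.8 in wild type and 77.1 and 74.1 in ApcMin/+, and the 12 proliferation genes lay at 74.9, 81.6, 82.6 and 83.0. The summed signal of 24 enterocyte markers was 139 and 80.2 in wild type and 351 and 101 in ApcMin/+ (exact permutation test, two-sided, p = 0.667), and that of the proliferation genes 52.9 and 38.9 against 169 and 57.9 (p = 0.333, the smallest that 2 against 2 libraries allow in an exact permutation test). These sums carry the scale of the library. Over the mean of all its promoters, the enterocyte sum was 53.4 and 45.7 in wild type and 51.2 and 42.9 in ApcMin/+. That of the proliferation genes was 20.4 and 22.2 against 24.7 and 24.7, and the tests were made before this division. Of the 24 enterocyte markers 19 were tested, and Cdhr5, Vil1 and Slc15a1 had the highest signal. None of 7 Paneth, 8 goblet, 6 tuft, 17 immune and 16 mesenchyme, muscle and endothelial markers reached the mean signal of 2, and 1 of 8 enteroendocrine markers did. Their summed signal was 1.71 to 2.90 for Paneth cells, where Defa17 was at 0 in all 4 libraries, 9.74 to 20.8 for immune cells and 6.95 to 11.4 for mesenchyme, with the highest sum in ApcMin/+ replicate 1 for the first 2. Divided by the mean of all promoters of the library, ApcMin/+ replicate 1 was instead the lowest for both, at 0.424 against 0.806 to 0.974 for Paneth cells and 3.04 against 5.13 to 5.65 for immune cells. It was also the lowest for 16 genes listed as silent tissue markers, at 0.923 against 3.58 to 5.11. The same held for the goblet, enteroendocrine, tuft and mesenchyme lists, so this order was not particular to Paneth and immune markers. The mean of the 10 genes over that of the enterocyte markers was 0.394 and 0.476 in wild type and 0.499 and 0.570 in ApcMin/+. Without Rnf43 it was 0.384, 0.450, 0.382 and 0.551, and the groups overlapped. Over the mean of the proliferation genes that of the 10 genes was 0.516, 0.490, 0.518 and 0.496. The part of cell makeup in the values of the 10 genes was not tested.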

How the data were processed

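H3K4me3 was profiled by CUT&RUN in villus cells of 2 wild-type and 2 ApcMin/+ mice, and samples were grouped by the genotype in the labels. Reads were trimmed and aligned to mm10 with Bowtie2, duplicates were removed with Picard, and fragments of 150 to 500 bp were kept by the authors. The deposited values are signal, the HOMER coverage at each base, which the authors brought to 10000000 tags a library without subtracting a control or pooling replicates. The methods give 2 mice of each genotype at this age, and p-values measure the spread between these libraries.

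Signal was averaged within 1000 bp of the 5′ ends of 21938 protein-coding genes (GENCODE M21, 21 chromosomes). Fragments were obtained from the summed signal and the track sum per tag. Depth was 1430000 to 5470000 tags, and intervals are exact Poisson (95%) and cover counting error only. Stretches were runs of 100-bp bins above 5 times the mean of the genome, bridged across gaps of up to 500 bp and 300 bp or longer. Promoters that reached a mean signal of 2 were tested with limma 3.58.1 (R 4.3.3, trend) on log2(signal + 1), pseudocount 1, which understates the change of low promoters, and adjusted by Benjamini-Hochberg, at a threshold of 0.05. Python 3.11.15 with scipy 1.17.1, pandas 2.3.3, numpy 2.4.6 and matplotlib 3.10.9 did the rest.

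The 10 genes, the gene lists and the tests were chosen with earlier results of these data known. Each of the 10 genes is named with all values. Of other Wnt targets and of other crypt stem cell genes, the 2 highest and 2 lowest differences were named, and of marker lists at most the 3 with the highest signal, and Defa17 after its values were seen. The alternatives were the scaling, pseudocount, filter, window, start site, the replicate number as a block, and each library left out in turn. H3K9me3, total H3, no-antibody, RNA-seq and older mice were not analysed here.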

Additional observations from a re-analysis of the deposited data

How the results depend on the processing

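The count of called promoters (0), of called genes among the 10 (0), of those with both ApcMin/+ libraries higher (4) and the median log2 difference (0.90) were recomputed under each setting, and the cause of a move was not tested. Centring on the median promoter gave 12 called promoters, 0 genes with both ApcMin/+ libraries higher (13.1% of all tested promoters) and a median of 0.043. Quantile normalization gave 2, 1 (14.8%) and 0.14. A pseudocount of 5 gave a median of 0.40, and a mean signal of at least 5, which leaves 2 of the 10 genes, gave 1 gene with both higher (32.0% of all tested promoters). The replicate number was used as a block, since the labels give both genotypes replicates 1 and 2. The block called 1 promoter, none of the 10 genes. With centring it gave 15 promoters, 0 genes with both higher (13.1% of all tested promoters) and a median of 0.043. Replicates of the same number share only that number by the labels (correlation of their deviations 0.20). Leaving out 1 library gave 0 to 6478 called promoters, 0 to 5 called genes, 4 to 7 genes with both higher and a median of 0.20 to 1.31, with the highest counts without ApcMin/+ replicate 2, where 98.9% of all tested promoters were higher (without wild-type replicate 1, 87.5%). With centring, and leaving out wild-type replicates 1 and 2 and ApcMin/+ replicates 1 and 2 in turn, 2, 18, 0 and 30 promoters were called, 1, 2, 3 and 2 genes had both higher (28.9%, 33.6%, 28.8% and 32.7% of all tested promoters), and the median was -0.10, -0.048, 0.071 and -0.27.

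In the centred fits with 1 library left out, in the same order, 1, 1, 1 and 3 genes had both ApcMin/+ libraries, or the remaining one, lower. Of all tested promoters, 31.4%, 34.4%, 30.0% and 34.8% were lower in this way. Without ApcMin/+ replicate 2, more genes were lower (Smoc2, Znrf3 and Ephb2) than higher (Rnf43 and Sox9). In settings chosen after seeing the data, all promoters with centring gave 9 calls, 0 genes with both higher (5.96% of all promoters) and a median of -0.18, beside -0.50 over all promoters. The strongest start with centring gave 13, 0 (12.3% of all tested promoters) and 0.0068, beside -0.028. In these 2 settings 0 genes had both lower, against 21.2% and 15.2%. The number of genes with a higher percentile in both ApcMin/+ libraries (4), also a count added after seeing the data, was 1 at 500 bp, 3 at 2000 bp and 2 at the strongest start. Without wild-type replicates 1 and 2 and ApcMin/+ replicates 1 and 2 in turn, 6, 6, 6 and 5 genes were higher. The shares of all promoters were 35.5%, 34.8%, 28.7% and 29.6%. In the same settings 1, 2, 1 and 1 genes were lower, against 34.2%, 38.8%, 29.5% and 31.4% of all promoters.

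The sign of a single gene turned 37 times, and in all but 2 of these the libraries had been rescaled. When centred, with the block and centring, and with no filter and centring, Smoc2 was -0.075, Axin2 -0.37 and Znrf3 -0.42. At the strongest start with centring they were -0.026, -0.012 and -0.45. Quantile normalization gave -0.31 at Axin2 and -0.41 at Znrf3. On the scale of the tracks Axin2 was -0.052 without wild-type replicate 2 and -0.44 without ApcMin/+ replicate 1, in a range up to 1.41 without ApcMin/+ replicate 2. With no filter and centring, Lgr5 was -0.49, Ascl2 -0.28 and Olfm4 -0.63, and at the strongest start with centring Ascl2 was -0.58. With a library left out and centring, the reversed values were -0.10, -0.048 and -0.61 at Smoc2, -0.059, -0.68, -0.57 and -0.18 at Axin2, -0.67, -0.17, -0.12 and -0.73 at Znrf3, -0.17 and -0.012 at Sox9, -0.23 and -0.28 at Cd44 and -0.18 and -0.27 at Ephb2. Depth limits the 3 stem cell markers of low signal most, at 0 to 16 fragments.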
